A study of Drosera capensis with 12 samples.

Results

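Open, unstimulated traps of Drosera capensis, the Cape sundew, served as the starting state in a pair of experiments, and the question addressed here is how far those starting states were alike. The GSH mock group (3 libraries) holds traps that received no small molecule and were the control for glutathione (GSH). The fly mock group (3 libraries) holds non-stimulated traps that were the control for feeding with living fruit flies. These 6 of the 12 RNA sequencing libraries were chosen by their titles alone. The labels give leaf tissue and no agent for both groups. The other 6 libraries came from traps that had closed, 3 after GSH at 100 mM on the petiole (GSH-closed) and 3 on living fruit flies (fly-closed). They entered the filter and the estimate of spread, and are used at the end to read the resting differences again in other libraries. The agent label of the fly-closed libraries reads GSH, against their title, and they are grouped by title. The labels give no plant age, genotype, collection date or batch, and nothing in them says whether replicates are separate plants. P-values thus reflect spread between samples that may be technical only. Each resting group belongs to 1 experiment, so group, experiment and any batch cannot be told apart.

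Sundew leaves carry stalked glands that secrete sticky mucilage. When prey struggles, electrical and calcium signals spread through the leaf, jasmonate hormones accumulate, and the leaf bends over the prey while its glands release digestive enzymes. A resting trap is open and has not received this signal, so its RNA sets the level from which any closing response is measured. GSH is a small thiol tripeptide found in plant cells, where it takes part in redox balance and also acts as an extracellular signal.

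The table lists 397048 features of a de novo transcript assembly, of which 150717 were above 0 in at least 1 resting library. The files pair no feature with a gene name. The labelled tissue could therefore not be checked against marker genes, and features are described by their levels, with 4 named by their assembly IDs. Levels are given as TPM, here a deposited value as its share of the library's sum, times 1e+06. The read depth behind a value is unknown, since the deposited values are rescaled and are not counts. In bulk tissue, fewer cells of a type and less RNA per cell cannot be told apart.

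The resting groups were separable, and libraries of different groups were less alike than replicates of the same group. Across the tested features, on log2(TPM + 1) after scaling, Pearson's r was 0.902 to 0.914 for the 9 pairs of a GSH mock with a fly mock library. It was 0.918 to 0.929 for the 3 pairs within the GSH mock and 0.919 to 0.923 for the 3 pairs within the fly mock. The median absolute difference of a feature was 0.31 to 0.35 on the log2 scale between groups. Within groups it was 0.20 to 0.27 among GSH mock libraries and 0.21 to 0.22 among fly mock libraries. In a principal component analysis of the 6 libraries, the first component held 27.2% of the variance and placed the 3 GSH mock libraries on one side and the 3 fly mock libraries on the other. The second component held 20.5% and set GSH mock replicate 2 apart from GSH mock replicates 1 and 3. Without that library the number of features called below was 4319, against 4332 with it. When another resting library was left out instead, it was 3125 to 3704. A similar count does not show that the same features were called.

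At the level of single features, 4332 of 45503 tested features (9.52%) differed between the resting groups. Of these, 2618 (5.75% of those tested) were higher and 1714 (3.77%) were lower in the GSH mock. A feature was called by limma when its Benjamini-Hochberg adjusted p was below 0.05, in a fit of log2(TPM + 1) over all 12 libraries in 4 groups. Changes are GSH mock minus fly mock on that scale, where adding 1 shrinks the change of low features. Most differences were small. The median change was 0.58 among features that were higher in the GSH mock and -0.64 among those that were lower, and 80.5% of the calls were under 2-fold. At least 2-fold, 484 features were higher and 361 were lower in the GSH mock. At least 8-fold, 44 were higher and 13 were lower.

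**Figure D1:**
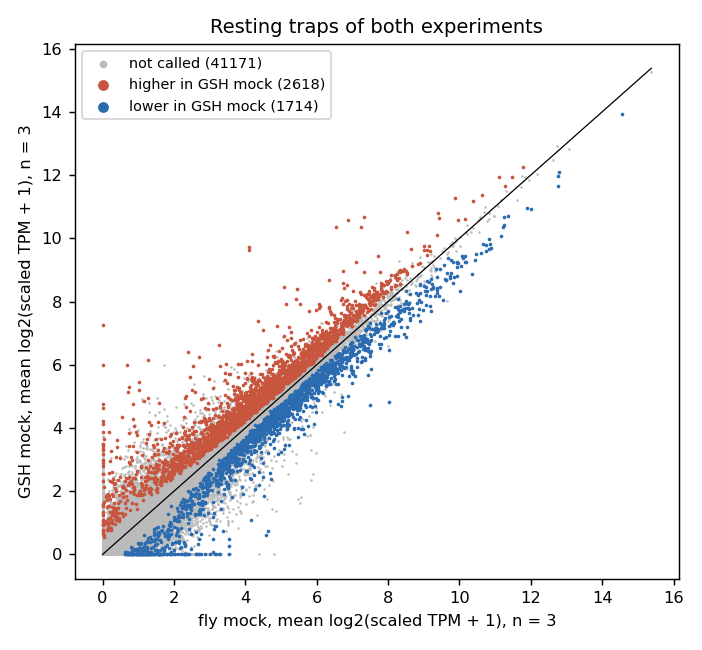
Mean log2(scaled TPM + 1) of every tested feature in the GSH mock (vertical axis) against the fly mock (horizontal axis), each over 3 libraries. The line marks equal levels, and the 2618 features called higher and the 1714 called lower in the GSH mock lie on both sides of it over the whole range of abundance.

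The split between directions depended on the scaling between libraries. Of the calls, 60.4% were higher in the GSH mock with scaling by a trimmed mean of ratios and 78.0% without scaling, where 4106 features were higher and 1158 lower. Nearly all features called higher stayed so without scaling, 2616 of 2618, but only 1136 of the 1714 called lower did. The number of calls also depended on the fit and the filter. With the 6 resting libraries scaled and fitted alone, 2418 (5.31%) were called, and with no filter on low values 2317. Through 15 alternative settings, which leave out the 2-fold minimum, 1145 features stayed higher and 635 stayed lower in the GSH mock. These had median changes of 0.76 and -0.74.

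Scaled TPM of the groups did not overlap for 10929 tested features (24.0%), 5885 (12.9%) with the GSH mock higher and 5044 (11.1%) with the GSH mock lower. Without ties, 3 against 3 libraries that do not differ separate with a probability of 0.1. Of the 4332 called features, all but 7 were among the separate ones. Both readings use the same 6 resting libraries, so this is no separate support for the calls. On the log2(TPM + 1) scale, the size of the difference could be bounded for a larger set. For 27406 features (60.2% of those tested) the 95% interval of the difference lay within 2-fold in both directions. These include 842 features at 0 in all 6 resting libraries, which entered through the closed traps and say nothing of a level. Of the 17023 features with a resting mean of up to 1 on this scale, 51.5% had such an interval. Adding 1 shrinks their change, so the interval is no bound on their fold in TPM. Of the 31428 tested features above 0 in all 6 resting libraries, 23161 (73.7%) had such an interval. The interval lay wholly beyond 2-fold for 372 features, 250 higher and 122 lower in the GSH mock. The remaining 17725 features had an interval that crossed the 2-fold limit. These intervals come from the limma fit and were not adjusted for the number of features. With a pseudocount of 0.1 in place of 1, intervals of low features widened and 16244 lay within 2-fold.

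Abundant features were called most often. Where the mean log2(TPM + 1) over the resting libraries was 1 or less, 0.441% were higher and 0.852% were lower in the GSH mock. Between 4 and 6, 16.3% were higher and 9.37% lower, and between 6 and 8, 28.8% were higher and 17.1% lower. The precision of the comparison changed in the same direction, with a median SE of 0.31 for features of up to 1 and 0.08 for those between 6 and 8. Differences in low features were thus harder to call, and their frequency cannot be read from this trend. Between 4 and 6, between 6 and 8 and over 8, the median SE was 0.10, 0.08 and 0.09. The median size of the change of all tested features was 0.22, 0.30 and 0.44 in these classes, and 0.23 for features of up to 1. What sets the trend was not tested.

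The top of the range had the opposite balance. Of 337 features over 8, 75 (22.3%) were higher and 112 (33.2%) were lower in the GSH mock. This balance turned without scaling, to 118 higher and 103 lower. Median changes of called features were 0.54 in size between 6 and 8 and 0.70 over 8. Replicates of the GSH mock also spread more in this range, with a median SD of 0.17 against 0.09 in the fly mock over 8. Without GSH mock replicate 2 the counts over 8 were 72 higher and 132 lower.

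**Figure D2:**
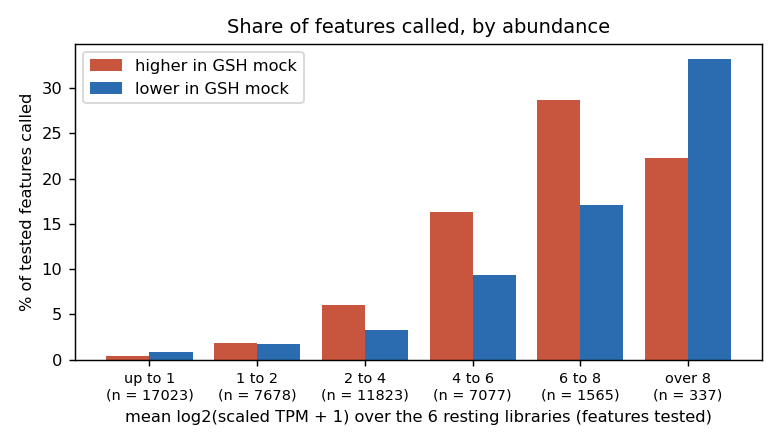
Percent of tested features called higher or lower in the GSH mock than in the fly mock (vertical axis), by mean log2(scaled TPM + 1) over the 6 resting libraries (horizontal axis, with the number of features tested). The share called grows with abundance, to 55.5% of features over 8, and in the highest class 112 features are lower and 75 higher in the GSH mock, a balance that turns without scaling.

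The most abundant features were largely shared between the groups. The 100 features with the highest mean TPM had 76 members in common between the groups. Of the 124 features in either list, 27 were called higher and 46 lower in the GSH mock, or 58.9% in all. This is near the 55.5% called among features over 8 and above the 9.52% of all tested features, and the balance of directions over 8 turns without scaling. Among the 1000 most abundant, 839 were common to both groups. Of the 1161 in either list, 54.7% were called, against 45.9% of features between 6 and 8 and 55.5% of those over 8. The 1161 draw on both classes. A feature can also enter either list through the group where it is higher, so these shares are a description only. The share of all TPM held by a library's own 100 most abundant features was 24.9%, 27.8% and 24.5% in the GSH mock against 26.3%, 27.4% and 25.8% in the fly mock. These values overlapped (two-sided exact permutation p = 0.6, also 0.6 adjusted over 5 measures).

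Few features carried much of the difference. The 2618 features that were higher in the GSH mock together held 97078 TPM more there than in the fly mock, and 140 of them made up 50% of that excess. The 1714 that were lower held 74953 TPM less, and 33 of them made up 50% of that deficit. The 10 features with the most weight made up 16.7% of the excess and 31.0% of the deficit. These sums use means without scaling and describe features that were chosen by the same libraries.

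The named features show a graded and a listed-at-0 difference in each direction. TRINITY_DN3176_c0_g1 stood at 981, 918 and 964 TPM in the GSH mock, against 18.0, 15.0 and 17.0 TPM in the fly mock. The groups lay far apart, with little spread in either. On the log2 scale it changed by 5.62 ± 0.06 (SE), with a limma adjusted p of 4.74e-11. It was chosen as the largest change among 2114 called features with separate groups. Its size, p and separation at rest are thus a description and no support. In closed traps it stood at 3662, 3699 and 3418 TPM after GSH and at 87.7, 95.8 and 99.3 TPM after flies. Each closed group thus lay above the resting group of its own experiment, and the gap between the experiments was 5.49 ± 0.05 (limma adjusted p = 9.97e-07) in the fit of the closed libraries. The difference between the closed and the resting gap was -0.15 ± 0.09 and did not pass the test (limma adjusted p = 0.372). That test uses the resting gap by which the feature was chosen, so it is a description only. It does not show that the gaps are equal.

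TRINITY_DN222964_c0_g1 had 97.1, 224 and 233 TPM in the GSH mock, against a listing of 0 throughout the fly mock, which allows no fold. It was chosen for this pattern, so no test is given. GSH mock replicate 1 was the lowest of its group. In GSH-closed traps it stood at 429, 344 and 558 TPM, against 0, 14.7 and 39.2 TPM in fly-closed traps. No fly-closed library reached the lowest GSH-closed one. The assembly component of TRINITY_DN222964_c0_g1 holds 1 other listed feature, which was not among those tested. Reads may be divided between them, so a listing of 0 need not mean absence.

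TRINITY_DN76159_c1_g1 stood at 87.8, 24.3 and 13.7 TPM in the GSH mock, against 253, 319 and 241 TPM in the fly mock. The groups did not overlap, although the GSH mock libraries spread widely. Its change was -3.20 ± 0.61 (SE, limma adjusted p = 0.00805). It was chosen as the largest change among 1278 called features with separate groups, so its resting values are a description and no support. In the fit of the 6 resting libraries alone the adjusted p was 0.056, and over 15 alternatives it ranged from 0.00145 to 0.056. In closed traps it stood at 35.4, 44.4 and 119 TPM after GSH and at 214, 243 and 151 TPM after flies, a gap of -1.53 ± 0.47 that did not pass the test (limma adjusted p = 0.0657).

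TRINITY_DN13202_c0_g1 had a listing of 0 throughout the GSH mock, against 11.9, 9.46 and 11.8 TPM in the fly mock, which allows no fold. It was admitted by the filter through the fly mock alone and chosen for this pattern, so no test is given. It was also listed at 0 in all 3 GSH-closed libraries. In fly-closed traps it stood at 0, 0.65 and 0.47 TPM. Of the 12 libraries, the 3 of the fly mock alone were above 1 TPM.

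**Figure D3:**
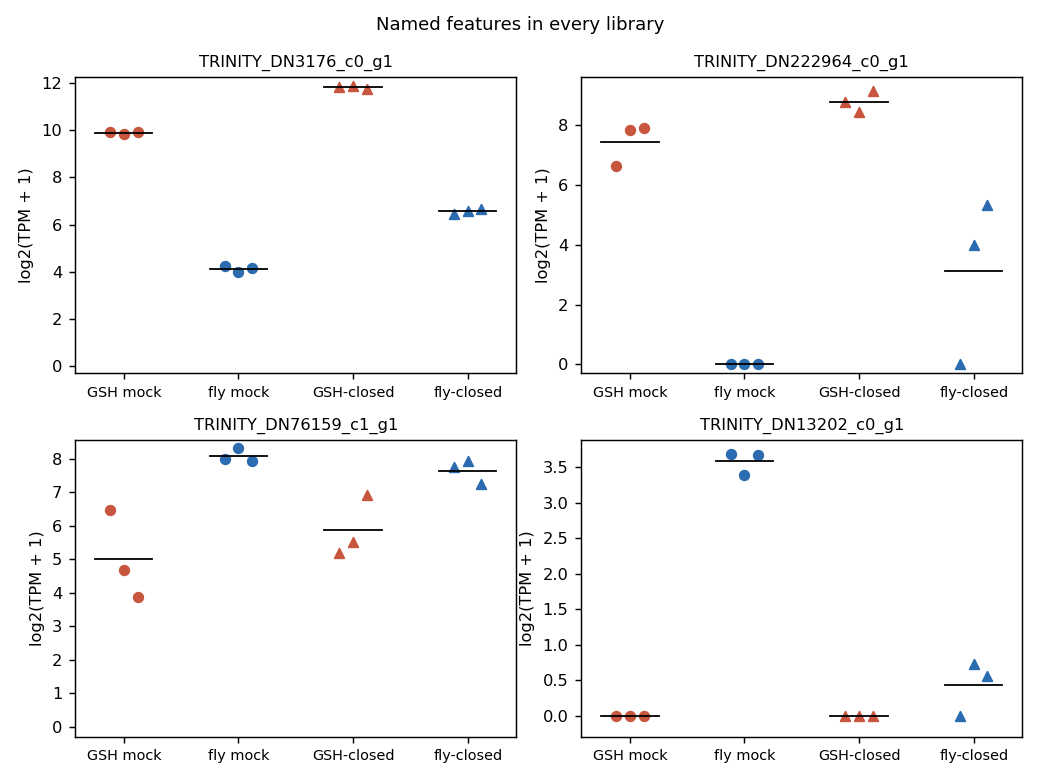
Level of each named feature as log2(TPM + 1) without scaling (vertical axes) in every library of the 4 groups (horizontal axes), with circles for resting and triangles for closed traps and a line at the group mean. The features in the upper panels were chosen as higher and those in the lower panels as lower in the GSH mock, and TRINITY_DN13202_c0_g1 is above 1 TPM in the fly mock libraries alone.

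Few tested features were present throughout one group and absent from the other. Listed at 1 TPM or more in all 3 GSH mock libraries and at 0 in all 3 fly mock libraries were 43 of the 45503 tested features, and the reverse held for 75. Such a feature can pass the filter through the group where it is present, so these counts are a description only.

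Features that belong to one assembly component, which may be variants of a gene or parts of it, were compared as sums. Of 40849 tested component sums, 3928 (9.62%) differed, 2365 (5.79%) higher and 1563 (3.83%) lower in the GSH mock. Most calls of single features held in the sum, 2417 of 2618 that were higher and 1561 of 1714 that were lower. The sum was called the other way for 17. Only 1435 of the 4332 called features share their component with another listed feature. For the others the sum is the feature itself, so that its agreement was nearly fixed in advance. Called sisters mostly shared a direction: of 160 components with at least 2 called features, 83 had all of them higher and 49 all of them lower in the GSH mock. As 60.4% of all calls were higher, some sisters would share a direction anyway, and no expected share is set beside these counts. In 28 components, called sisters went in opposite directions. When these 28 were summed, 8 were called higher and 6 lower, and the median size of the change was 0.24 on the log2 scale, against 0.57 for the called sisters themselves. Reads shared between sisters may be divided between them, and its part in these components was not tested.

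The number of features detected also lay apart between the groups. The read depth behind it is unknown, and its part in this gap was not tested. The GSH mock libraries had 59804, 60900 and 61685 features above 0, against 74756, 75083 and 76559 in the fly mock. All GSH mock libraries lay below all fly mock libraries, with means of 60796 ± 945 and 75466 ± 961 (SD, n = 3 each). A two-sided exact permutation test gave p = 0.1, its lower limit with 3 libraries a group, or 0.125 after Benjamini-Hochberg adjustment over 5 measures. The GSH mock had 19.4% fewer features above 0, 20.7% fewer at 1 TPM or more and 8.95% fewer at 10 TPM or more. At 1 TPM or more GSH mock libraries had 33979 ± 603 features and fly mock libraries 42853 ± 1500, and at 10 TPM or more 14736 ± 207 and 16184 ± 447 (SD, n = 3 each). The same order was seen in closed traps, with 60755 to 63088 features above 0 after GSH and 76461 to 86499 after flies.

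**Figure D4:**
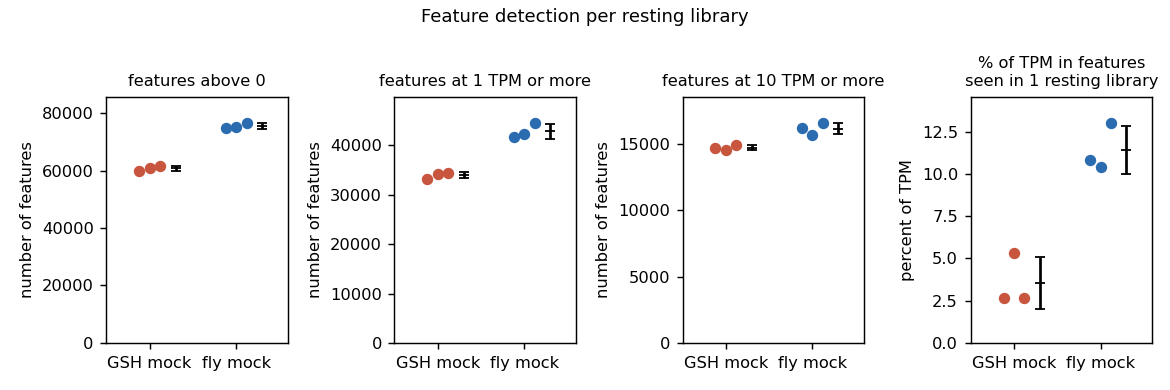
Features above 0, at 1 TPM or more and at 10 TPM or more, and percent of TPM in features seen in a single resting library (vertical axes), for each library of the GSH mock and the fly mock, with mean and SD beside the points. In all 4 panels the 3 fly mock libraries lie above the 3 GSH mock libraries.

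Features seen once made up most of the gap. A core of 35171 features was above 0 in all 6 resting libraries and made up 93.8% of the GSH mock's TPM and 86.0% of the fly mock's. Features seen in a single resting library numbered 22777 for the GSH mock and 53808 for the fly mock. They held 2.63%, 5.34% and 2.68% of TPM in the GSH mock libraries, against 10.8%, 10.4% and 13.0% in the fly mock libraries. The highest GSH mock value was that of replicate 2, and it lay below every fly mock value. The GSH mock averaged 3.55% ± 1.55 and the fly mock 11.4% ± 1.40 (SD, n = 3 each; two-sided exact permutation p = 0.1, adjusted 0.125).

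These single-library features were also listed at higher levels in the fly mock. Their median was 1.03, 1.59 and 0.92 TPM in the GSH mock libraries and 3.16, 3.33 and 3.85 TPM in the fly mock libraries. At 10 TPM or more stood 782, 1663 and 759 of them in the GSH mock libraries and 3337, 3194 and 4096 in the fly mock libraries. The table lists a sister in the same component for 13.4% to 14.6% of them in the GSH mock libraries and for 7.75% to 9.03% in the fly mock libraries. By contrast, features seen in all 3 libraries of a group and in none of the other were few, 344 for the GSH mock and 1260 for the fly mock. When all steps were repeated without the single-library features, limma called 4307 features, 2499 higher and 1808 lower in the GSH mock. In each resting library, most TPM of these features lay in features seen in only 1 of the 12 libraries. Such features cannot pass a filter that asks for 3 or more libraries. By TPM, the repeat thus mainly removed untested features, and its count cannot show whether the calls depend on them.

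The closed traps allowed the resting differences to be read in libraries that had not chosen them. For this, the resting difference was fitted on the 6 resting libraries alone, which called 1407 features (3.09%) higher and 1011 (2.22%) lower in the GSH mock. The closed libraries were fitted alone too. Between GSH-closed and fly-closed traps 11770 features (25.9%) differed, 6431 (14.1%) higher and 5339 (11.7%) lower in GSH-closed traps. With no filter on low values, 3117 did. The closed groups differ both in experiment and in stimulus, which cannot be told apart.

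Most features that differed at rest differed in the same direction after closure. Of the 1407 features higher in the GSH mock, 1016 (72.2%) were called higher and 31 (2.20%) lower in GSH-closed than in fly-closed traps. Of the 1011 features lower in the GSH mock, 725 (71.7%) were called lower and 38 (3.76%) higher in GSH-closed traps. The groups of closed libraries did not overlap in the same direction for 1107 (78.7%) of the higher and 789 (78.0%) of the lower features, against 19.5% and 21.8% of all tested features. The median closed difference was 0.80 for the higher and -0.76 for the lower features, against 0.75 and -0.75 at rest, where they were chosen. Over all tested features the median closed difference was -0.06. Without scaling, 58.3% of the higher and 77.6% of the lower features were called in the same direction, against 10.4% and 18.0% of all tested features.

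Features that were at least 2-fold apart at rest were read in the same way. Of 423 that were higher in the GSH mock, 319 (75.4%) were called higher in GSH-closed traps, with a median difference of 2.09 in closed traps and 1.44 at rest. Of 297 that were lower, 147 (49.5%) were called lower, with a median difference of -0.86 in closed traps and -1.34 at rest. Of all tested features, 14.1% were called higher and 11.7% lower in GSH-closed traps. The resting libraries set both the call and the 2-fold limit, which can raise the size of the resting medians. No change after closure can thus be read from these medians. Whether these shares differ was not tested. Across the 2418 features called at rest, the resting and the closed difference had a Pearson's r of 0.71 and a Spearman's rho of 0.75, and across all 45503 tested features 0.29 and 0.29. The paired differences share no library, but the points are features of the same libraries and no replicates of each other.

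**Figure D5:**
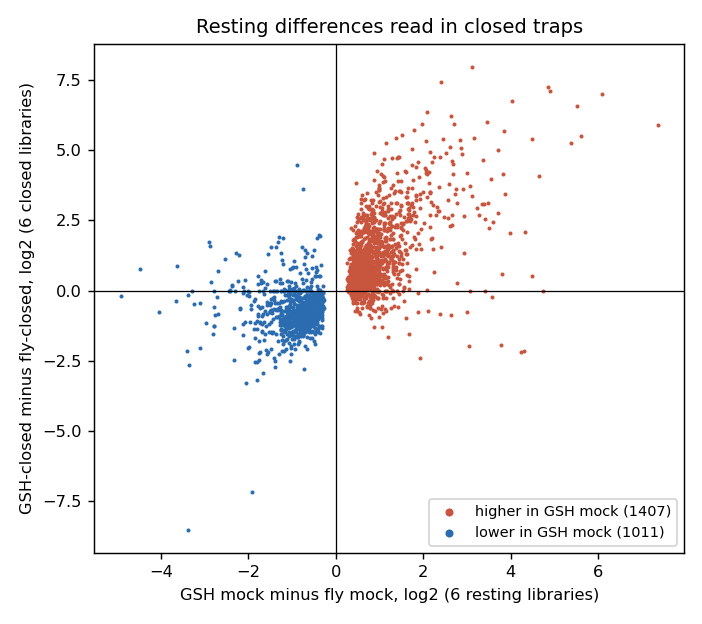
Difference between GSH-closed and fly-closed traps (vertical axis, log2, 6 closed libraries) against the difference between GSH mock and fly mock (horizontal axis, log2, 6 resting libraries) for the 2418 features called in the fit of the resting libraries. Of the 1407 higher features 1254 lie above the horizontal line, and of the 1011 lower ones 893 lie below it.

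Summed over the features, the gap between the experiments was present in both states. The 1407 features higher in the GSH mock held 16.7% ± 0.254 of TPM in GSH-closed traps and 6.72% ± 0.464 in fly-closed traps (SD, n = 3 each). At rest, where they were chosen, they had held 13.0% ± 0.731 of the GSH mock and 6.29% ± 0.0716 of the fly mock. The 1011 lower features held 5.83% ± 0.0568 in GSH-closed traps and 12.1% ± 0.818 in fly-closed traps, against 8.19% ± 0.00724 of the GSH mock and 13.6% ± 0.527 of the fly mock at rest (SD, n = 3 each). In both sets the closed groups did not overlap, and the exact permutation test (two-sided) gave its minimum of p = 0.1 for 3 against 3, or 0.125 adjusted. Shares are unscaled. The tested features as a whole took up 96.0% ± 1.55 of the GSH mock's TPM and 88.0% ± 1.41 of the fly mock's (SD, n = 3 each).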

How the data were processed

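RNA of 12 leaf trap libraries was sequenced, and per the labels' protocols the NEBNext Ultra kit was used on total RNA. The submitters' processing notes list cutadapt, Trimmomatic, RSEM and DESeq2 (version 1.16.1) without saying what each did. The deposited table is named for counts, but it holds a rescaled signal. In each library, 100% of the deposited signal values between 0 and 60 fell on steps of the column sum over 1e+08 (tolerance 0.0051), and at most 2.25% were whole. They were taken as TPM; whether feature length was corrected for is not shown. Column sums were 17708300 to 20453100.

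Tested features had 0.526 TPM or more (which equals 10 in a column of median sum) in 3 or more of the 12 libraries. An unweighted trimmed mean of log ratios (trim of 30% for ratios and 5% for abundances) set the scaling. The log2 of TPM plus 1 then entered limma 3.58.1 (R 4.3.3; trend and robust; 8 residual degrees of freedom), with a threshold of 0.05 on the Benjamini-Hochberg adjusted p. The fit had been tested on simulated data. For single measures of a library, exact permutation tests were used.

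A pair of rules named the features of each direction, both among called ones: the largest change where all 6 resting libraries are above 0, groups are separate and the resting mean is 3 or higher on the log2 scale (2114 higher, 1278 lower qualified), and the highest mean TPM where the other group is at 0 (36 and 102 qualified). Groups, comparisons and rules were chosen with earlier results of these data known. The removal of single-library features, the filter on resting libraries alone and the count of intervals within 2-fold were added after seeing the data. Alternatives changed scaling, filter, pseudocount, fitted groups, pairing, threshold and libraries.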

Additional observations from a re-analysis of the deposited data

Results flagged for a closer look

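TRINITY_DN13202_c0_g1 differed between the experiments at rest but hardly in closed traps. The difference in closed traps minus that at rest was 3.13 ± 0.28 (SE) on the log2(TPM + 1) scale, which a test of the difference singled out. That test is no support, since the feature passed the filter through the fly mock alone and was picked for its resting difference. It was listed at 0 in all 6 libraries of the GSH experiment. It averaged 0.373 ± 0.336 TPM in fly-closed traps and 11.0 ± 1.37 TPM in the fly mock (SD, n = 3 each). The size depends on the pseudocount and is no bound on a fold, and the read depth behind these values is unknown.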

How the results depend on the processing

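The 4332 calls between resting groups became 2418 with the resting libraries alone in the fit, 2317 with no filter, 2874 with the filter on the resting libraries alone and 845 at 2-fold or more; fewer residual degrees of freedom, more features tested and a stricter rule are part of these settings. The 3928 component calls became 2128, 2071 and 761 under the first, second and last of these. Without 1 replicate there were 3125 to 4319 feature calls and 2788 to 3868 component calls. Whether replicate numbers pair the resting samples could not be read: deviations of same-numbered libraries had r of 0.02, 0.01 and -0.01. Over all pairs of a GSH mock with a fly mock library r was -0.03 to 0.02. GSH mock replicates 1 and 2 had their highest r with the same-numbered fly mock library, and replicate 3 with fly mock replicate 1. All these values are near 0. With the replicate number as a block, 3729 features were called. Closed traps had 3117 calls with no filter and 9273 to 10051 without 1 replicate. The gap in detected features, -14670, was -8874 at 1 TPM or more and -15114 to -14123 without 1 replicate. The gap in the TPM share of single-library features ranged from -8.75 to -7.06 percentage points without 1 replicate. The gap in the share of the 100 most abundant features, -0.756 points, was -1.80 to -0.138 without 1 replicate and turned to 1.73 for the top 1000; the cause was not tested. The closed gaps in the shares of the resting sets were 12.8 and -8.71 points with sets chosen over 12 libraries, and 9.69 to 10.1 and -6.74 to -6.01 without 1 replicate. TRINITY_DN3176_c0_g1 kept its call in 15 of 15 alternatives and TRINITY_DN76159_c1_g1 in 14 of 15, which is no support, since both were chosen among called features. The named features listed at 0 in a group are left out here, as no test is given for them. Unknown read depth limits what can be said of low features.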
